A study of Mus musculus with 12 samples.

Results

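The immediate early and stress response was followed through 9 genes along the rostral to caudal axis of the embryonic neocortex. They were the transcription factors Fos, Jun, Junb, Atf3 and Egr1, the nuclear protein Ier2, the phosphatase Dusp1, and the growth regulators Gadd45b and Btg1. A probe belonged to a member when its symbol in the platform annotation was that gene, and each of the 9 genes had 1 probe. The annotation named 15063 genes in all.

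The tissue was the E13.5 mouse neocortex, an age at which progenitors line the ventricle and the first neurons have left it. From MF1, which is outbred, and from C57, an inbred strain written C57Bl\6 in the design text, 3 pools of rostral and of caudal tissue were collected, and per the labels 3 embryos went into a pool. The labels name no treatment and no altered allele. The design text says that 2 strains were used to control for differences between strains. RNA of the rostral and the caudal cortex of a pool was labelled with the dyes Cy3 and Cy5 and hybridised together, on 1 array with rostral RNA in Cy3 and on another with rostral RNA in Cy5. Every value below is therefore a log2 ratio with rostral RNA over caudal RNA, centred on its array's median, and a pool's value is the mean of its 2 arrays. Ratios carry no expression level, so neither the abundance of a member nor the presence of the marker genes of cortex could be read from them. In whole tissue, fewer cells of a type and less RNA per cell cannot be told apart.

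Immediate early genes are transcribed within minutes of a stimulus, without new protein synthesis, when kinase cascades reach factors such as SRF and CREB that already sit on their promoters. Fos and Jun proteins pair through leucine zippers to form AP-1. Dusp1 dephosphorylates the kinases that started the response. Atf3, Gadd45b and Btg1 respond to stress or to growth signals, and Btg1 is known for restraining proliferation. In the brain several of them also respond to neuronal activity.

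The likely direction was read from Nr2f1, a nuclear receptor known to be high in caudal cortex. As deposited, both of its probes were above 0 on all 6 arrays that carried caudal RNA in Cy5 and below 0 on all 6 that carried rostral RNA in Cy5. The deposited ratios were therefore taken as Cy5 over Cy3, and the sign was turned where rostral RNA was in Cy3. If the opposite convention held, every sign below would turn. Agreement within pools was low: over all probes both turned arrays of a pool had the same sign in 50.5% of 107634 comparisons. The Spearman correlation across probes between the turned arrays of a pool ran from 0.043 to 0.24 in MF1 and from -0.30 to -0.13 in C57. The share of probes lacking a value ran from 4.55% to 18.2% by array. The spread of the ratios (SD from the median absolute deviation) was 0.38 to 0.64 for MF1 and 0.64 to 0.88 for C57. As an array carried a single strain, strain and arrays cannot be told apart.

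Promoter sequence was available for 7 of the 9 members in RefSeq's GRCm38.p6 table; Egr1 and Ier2 were not matched. The 250 bases before the start are shown for Gadd45b (chr10:80929841-80930090, plus strand), Junb (chr8:84978749-84978998, minus strand) and Btg1 (chr10:96616751-96617000, plus strand), the members on which the ratios below turn. For Fos (chr12:85473797-85473856, plus strand), Atf3 (chr1:191183334-191183393, minus strand), Dusp1 (chr17:26508631-26508690, minus strand) and Jun (chr4:95052235-95052294, minus strand) the 60 bases around the first CREB or ATF type motif are shown. Capitals mark TGACGT on either strand, which is the CREB core and reads ACGTCA on the other strand, the related TGACATCA, and TATAAA.
Gadd45b: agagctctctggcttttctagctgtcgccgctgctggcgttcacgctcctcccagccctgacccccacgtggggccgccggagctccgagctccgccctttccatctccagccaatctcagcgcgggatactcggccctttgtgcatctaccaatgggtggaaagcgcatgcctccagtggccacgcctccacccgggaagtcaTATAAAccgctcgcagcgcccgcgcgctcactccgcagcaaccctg
Junb: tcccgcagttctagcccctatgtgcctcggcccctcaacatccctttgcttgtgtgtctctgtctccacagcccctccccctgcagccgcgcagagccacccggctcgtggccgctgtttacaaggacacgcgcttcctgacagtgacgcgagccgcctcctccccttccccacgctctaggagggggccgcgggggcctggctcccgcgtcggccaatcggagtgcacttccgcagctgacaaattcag
Btg1: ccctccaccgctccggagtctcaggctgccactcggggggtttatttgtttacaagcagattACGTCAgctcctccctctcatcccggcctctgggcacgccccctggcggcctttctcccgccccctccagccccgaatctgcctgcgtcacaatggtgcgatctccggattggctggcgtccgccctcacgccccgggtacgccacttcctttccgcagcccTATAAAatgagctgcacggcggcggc
Fos: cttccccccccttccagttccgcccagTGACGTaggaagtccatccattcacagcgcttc
Atf3: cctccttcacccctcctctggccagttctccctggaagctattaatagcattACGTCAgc
Dusp1: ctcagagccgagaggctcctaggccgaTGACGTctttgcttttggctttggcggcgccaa
Jun: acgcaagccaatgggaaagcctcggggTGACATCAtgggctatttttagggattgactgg

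TGACGT was present in 4 of the 7 promoters, those of Fos, Atf3, Dusp1 and Btg1, against 6.47% of 32851 promoters of this length. The full palindrome TGACGTCA, which contains TGACGT on both strands, was present in Dusp1 outside the stretch shown, against 1.55% of promoters. TGACATCA was present in Jun, against 2.93%. The 11 bases attACGTCAgc were identical in Atf3 and Btg1. TATAAA was present in Fos, Gadd45b and Btg1, 3 of 7, against 12.4% of promoters. The AP-1 motif TGANTCA (6.75% of promoters) and the CArG box, bound by SRF (1.47%), were in 0 of the 7 windows on either strand. Sites more than 250 bases upstream, and the promoters of Egr1 and Ier2, were not searched. Gadd45b and Junb held none of the CREB or ATF type motifs searched in these windows. Of the general promoter motifs, CCAAT was in 4 of 7 (33.9% of promoters) and GGGCGG in 6 of 7 (32.7%), and GCGNGGGCG, the Egr type motif, was in Gadd45b (4.70%). A match is a match of letters and shows no binding.

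Across the 9 members the ratios did not move as a block. Gadd45b and Junb lay above 0 in every pool measured, Btg1 lay below 0 in every pool, and Fos, Jun, Atf3, Egr1, Ier2 and Dusp1 had pools on both sides of 0. Of the 9, 7 had values in at least 2 pools of each strain and entered the test, limma on pool means with Benjamini-Hochberg adjustment over 14418 features. Of these, 0 passed at an adjusted p of 0.05, as did 0% of all features. At an unadjusted p under 0.05, 2 members lay higher rostrally and 1 lower, against 4.34% and 4.64% of all features. Of the 7, 2 lay above 0 in every pool measured and 1 below, together 3, against 3.32%, 3.05% and 6.37% of features. The median of the 7 tested members was -0.063, and that of all features 0.0091. Fos and Ier2 did not enter the test, because only 1 C57 pool had both arrays.

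**Figure D1:**
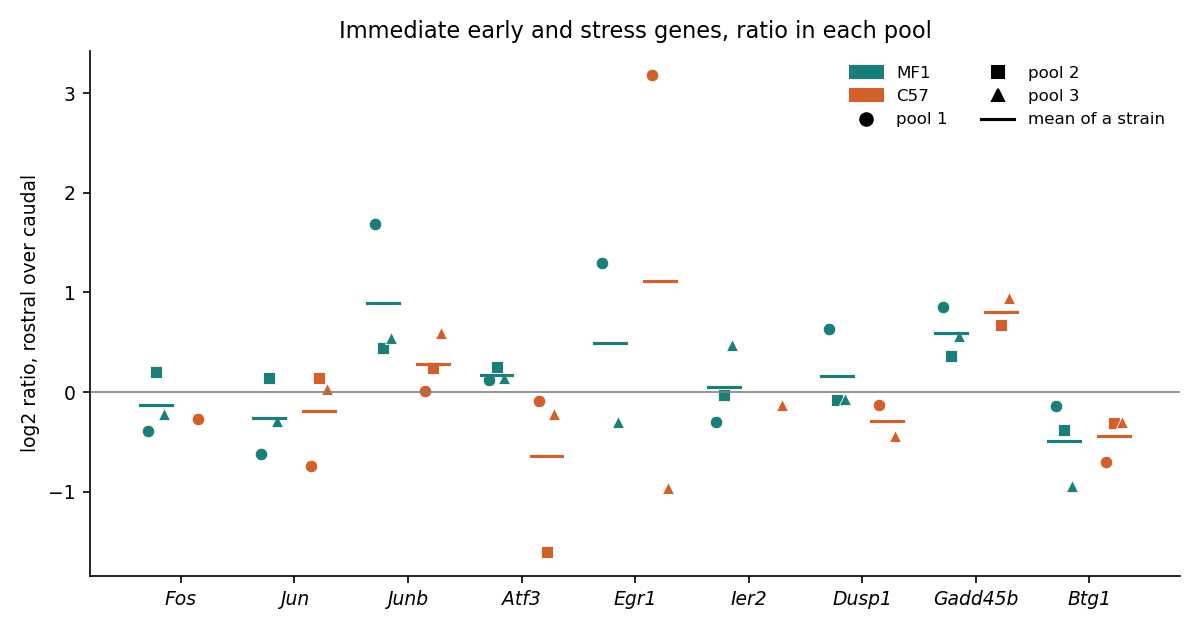
Log2 ratio of rostral over caudal cortex (vertical axis) of each member in each pool, with MF1 left of C57, pool numbers as symbols and a bar at the mean of a strain with 2 or more pools. Gadd45b and Junb lie above 0 and Btg1 below 0 in every pool measured, while Egr1 spreads from -0.96 to 3.19.

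Gadd45b, which binds stress-activated kinase regulators and takes part in DNA demethylation and growth arrest, had ratios of 0.85, 0.36 and 0.57 in MF1 pools 1 to 3. In C57 pools 2 and 3 the ratios were 0.67 and 0.94. All 5 pools lay above 0, as in 2.82% of the 3335 features measured in 5 pools, and the strains overlapped. The fitted ratio was 0.70 (limma, SE 0.14, 95% interval 0.36 to 1.05), a 1.62-fold difference, with an unadjusted p of 0.00274 and an adjusted p of 0.366. C57 pool 1 had a value only with rostral RNA in Cy3, at -0.34, and with that array counted the fitted ratio was 0.51. By dye, the mean was 0.20 ± 0.54 (SD, n = 6 arrays) with rostral RNA in Cy3 and 1.05 ± 0.65 (SD, n = 5 arrays) with rostral RNA in Cy5. In that order of dyes the arrays gave -0.33 and 1.68 in C57 pool 2 and 0.15 and 1.73 in C57 pool 3. The values of both these pools are thus means of unlike arrays.

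Junb, an AP-1 partner of Fos that generally activates less strongly than Jun, had ratios of 1.69, 0.44 and 0.55 in MF1 pools 1 to 3 and of 0.015, 0.25 and 0.59 in C57 pools 1 to 3. All 6 pools lay above 0, as in 3.47% of the 10596 features measured in 6 pools, and the strains overlapped. The fitted ratio was 0.59 (limma, SE 0.19, 95% interval 0.13 to 1.05), with an unadjusted p of 0.0193 and an adjusted p of 0.484. MF1 pool 1 stood above the others through its array with rostral RNA in Cy3, at 3.17, while its array with rostral RNA in Cy5 gave 0.20. Without that pool the fitted ratio was 0.39. Junb lay above 0 on 10 of 12 arrays, and 3.92% of probes measured on 12 arrays were above 0 on at least 10.

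Btg1, a member of the BTG and Tob family that binds the deadenylation machinery, had the smallest gap between the arrays of a pool among the 9 members. Its ratios were -0.14, -0.38 and -0.94 in MF1 pools 1 to 3 and -0.70, -0.31 and -0.30 in C57 pools 1 to 3. All 6 pools lay below 0, as in 2.5% of the features measured in 6 pools, and the strains overlapped. The fitted ratio was -0.46 (limma, SE 0.14, 95% interval -0.80 to -0.12), a 1.38-fold lower level rostrally, with an unadjusted p of 0.0148 and an adjusted p of 0.482. It lay below 0 on 11 of 12 arrays, the exception being C57 pool 3 with rostral RNA in Cy3 at 0.037. At least 11 arrays below 0 were found for 1.05% of probes measured on 12 arrays. The arrays of a pool differed by a median of 0.20, against 0.52 over all probes, and had the same sign in 5 of 6 pools. By dye, the means were -0.40 ± 0.38 with rostral RNA in Cy3 and -0.53 ± 0.30 with rostral RNA in Cy5 (SD, n = 6 arrays each).

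**Figure D2:**
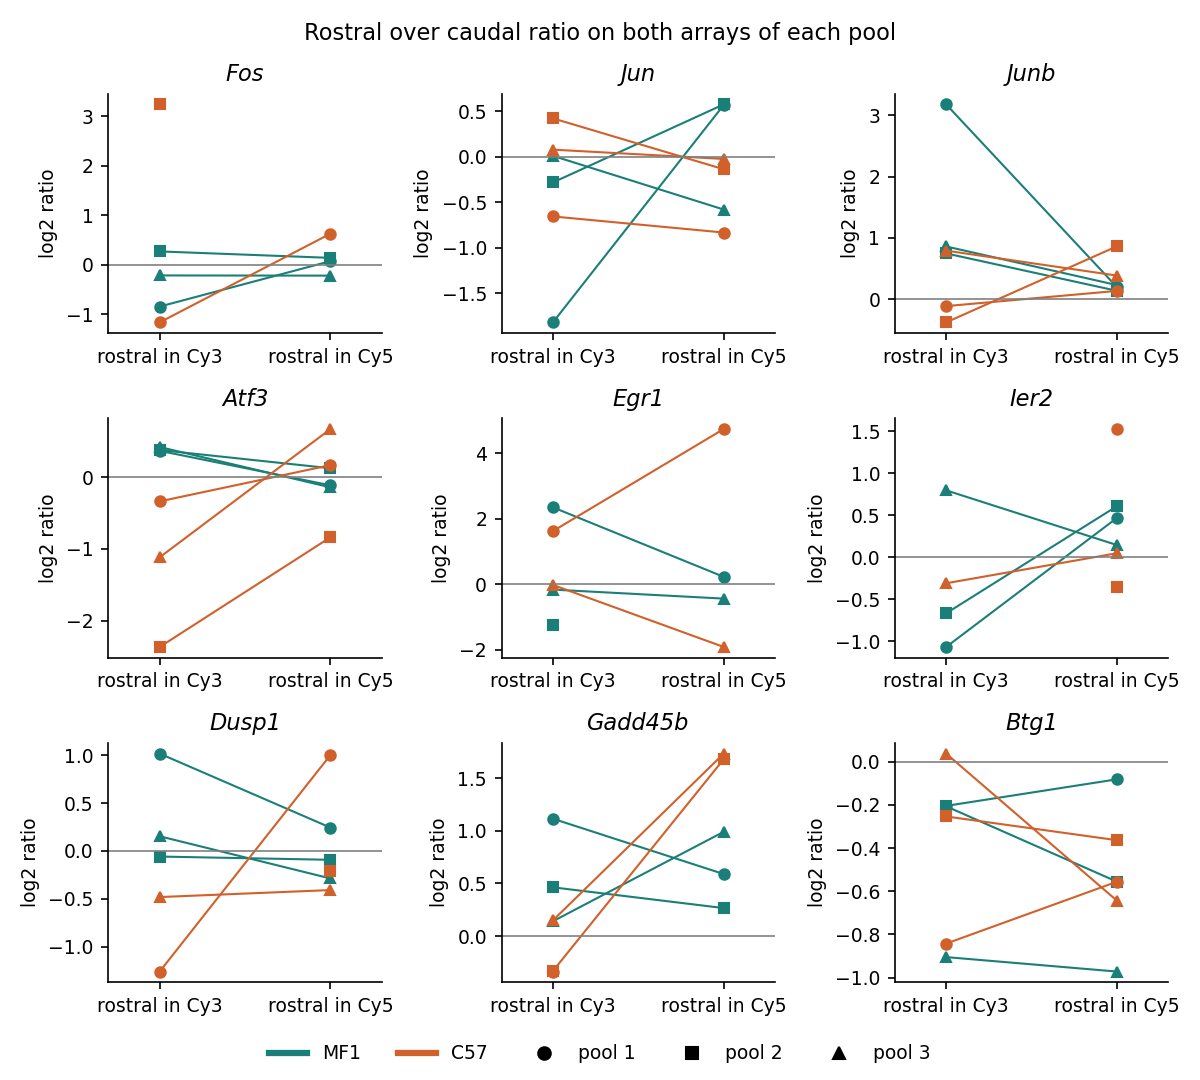
Log2 ratio of rostral over caudal cortex (vertical axes, each panel on its own scale) on both arrays of each pool, with rostral RNA in Cy3 on the left and in Cy5 on the right, and a line joining the arrays of 1 pool. The lines of Btg1 lie below 0 except at 1 point. Those of Jun and Atf3 join arrays of the same sign in 1 and 2 of 6 pools. Those of Gadd45b climb from Cy3 to Cy5 in MF1 pool 3 and C57 pools 2 and 3, and fall in MF1 pools 1 and 2.

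Among the AP-1 components Jun, a main partner of Fos, had ratios of -0.63, 0.14 and -0.29 in MF1 pools 1 to 3. In C57 pools 1 to 3 the ratios were -0.74, 0.14 and 0.026. Pools of both strains lay on both sides of 0. The fitted ratio was -0.22 (limma, 95% interval -0.62 to 0.18, adjusted p = 0.716). Its arrays had the same sign in 1 of 6 pools, and in MF1 pool 1 they gave -1.82 and 0.57 with rostral RNA in Cy3 and in Cy5.

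Fos, the prototype of the immediate early genes, had pool ratios of -0.39, 0.20 and -0.22 in MF1 and of -0.27 in C57 pool 1. C57 pool 2 had a single array, at 3.24 with rostral RNA in Cy3, and C57 pool 3 had none. The 9 arrays with a value ran from -1.17 to 3.24, with 5 above 0 and 4 below. With single arrays counted, the fitted ratio over both strains was 0.68, and with pools of both arrays alone the mean of the strain means was -0.20. Counting that 1 array thus turned the sign of Fos.

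Atf3, a stress-induced factor that often represses, had pool means that did not overlap between strains. Its ratios were 0.13, 0.25 and 0.14 in MF1 pools 1 to 3 and -0.086, -1.60 and -0.22 in C57 pools 1 to 3. The strains did not overlap and lay on opposite sides of 0, as did 3.24% of all features. Of the 7 tested members, Atf3 and Dusp1 had all MF1 pools above all C57 pools, as did 8.04% of features, and 0 had them all below (5.95%), together 14% of features. Dusp1 had only 2 C57 pools, and fewer pools overlap less easily. Its nearest pools were at -0.076 in MF1 and -0.13 in C57, the latter a mean of arrays at -1.26 and 1.002. For Atf3 the difference, MF1 minus C57, was 0.81 (limma, 95% interval -0.20 to 1.81) and did not pass at an adjusted p of 0.908. Over both strains the fitted ratio was -0.23 (limma, 95% interval -0.74 to 0.27, adjusted p = 0.762). The low value of C57 pool 2 was present on both arrays, at -2.37 and -0.84 with rostral RNA in Cy3 and in Cy5. In the other 2 C57 pools and in MF1 pools 1 and 3 the arrays disagreed in sign, so they had the same sign in 2 of 6 pools. With rostral RNA in Cy5 the strains overlapped, at -0.11, 0.12 and -0.14 in MF1 pools 1 to 3 and 0.17, -0.84 and 0.67 in C57 pools 1 to 3. Without C57 pool 2 the fitted ratio over both strains was 0.0081.

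Egr1, a zinc finger factor induced by growth factors and by neuronal activity, had the widest spread of the tested members. Its ratios were 1.29 and -0.30 in MF1 pools 1 and 3 and 3.19 and -0.96 in C57 pools 1 and 3. Each strain had 1 of these pools above and 1 below 0. MF1 pool 2 had a single array, at -1.24 with rostral RNA in Cy3, and C57 pool 2 had none. With that single array counted the fitted ratio over both strains was 0.51. The SD over the 4 pools with both arrays was 1.85, larger than in 99.4% of tested features. The value of C57 pool 1 was high on both arrays, at 1.63 and 4.75 with rostral RNA in Cy3 and in Cy5, and the arrays had the same sign in 4 of 4 pools. The fitted ratio of 0.80 (limma, 95% interval -1.12 to 2.72, adjusted p = 0.773) was thus smaller than the spread between pools. Without C57 pool 1 it was -0.23, and without C57 pool 3 it was 1.84, in fits that let the remaining C57 pool stand alone. In the pool with the highest ratio, C57 pool 1, the choroid plexus marker Ttr was at 1.19, against -1.72 to -0.84 in the other 5 pools, and the endothelial gene Icam2 at -3.12, against -0.96 to 0.067. In C57 pool 1 the median of the choroid plexus list was -0.10, against -0.62 to -0.10 in the other pools. That of the blood vessel list was -0.14, against -0.084 to 0.070 in the other pools. The medians in C57 pool 1 were -0.27 for meninges and mesenchyme, 0.0005 for red blood cells and 0.0043 for microglia and macrophages. The immediate early gene Fosb, at 2.43, also had its highest ratio in this pool, while Jun (-0.74) and Egr4 (-0.85) had their lowest. Of the 7 members with a value there, 2 lay above 0, Egr1 and Junb (0.015). The median of the other immediate early transcription factors in this pool was 0.053. The part of these genes in the Egr1 ratio was not tested.

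Ier2, a short-lived nuclear protein induced with Fos and Jun, had ratios of -0.30, -0.031 and 0.47 in MF1 pools 1 to 3 and of -0.13 in C57 pool 3. Single arrays of C57 pools 1 and 2 gave 1.53 and -0.36 with rostral RNA in Cy5. Of the 6 arrays with rostral RNA in Cy5, 5 lay above 0. Of the 4 with rostral RNA in Cy3, 1 did. The mean of the strain means was -0.043 with pools of both arrays and 0.20 with single arrays counted, so its sign turned too.

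Dusp1, the nuclear phosphatase that switches off MAP kinases, had ratios of 0.63, -0.076 and -0.068 in MF1 pools 1 to 3 and of -0.13 and -0.45 in C57 pools 1 and 3. Only MF1 pool 1 lay above 0. The fitted ratio was -0.063 (limma, 95% interval -0.47 to 0.35, adjusted p = 0.926). In C57 pool 1 the arrays gave -1.26 and 1.002 with rostral RNA in Cy3 and in Cy5.

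**Figure D3:**
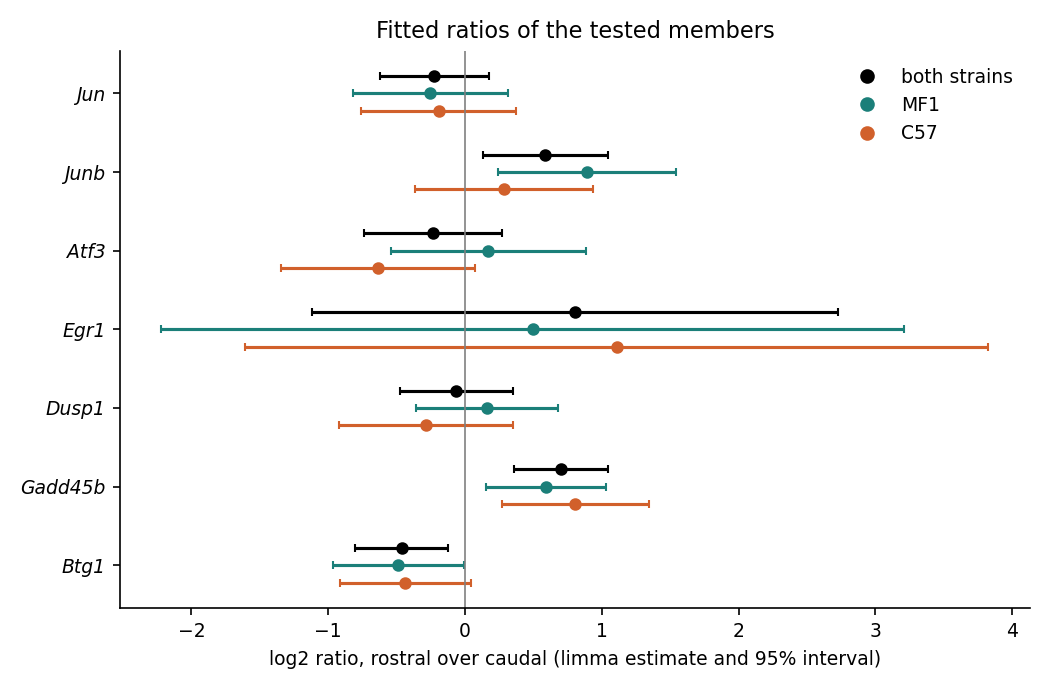
Fitted log2 ratio of rostral over caudal cortex (horizontal axis, limma) of the 7 tested members, with 95% intervals, over both strains in black, in MF1 in green and in C57 in orange. The intervals over both strains leave out 0 for Junb, Gadd45b and Btg1, and that of Egr1 spans -1.12 to 2.72.

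By strain, Gadd45b had a fitted ratio of 0.59 in MF1 (limma, 95% interval 0.16 to 1.03) and of 0.81 in C57 (0.27 to 1.34). The C57 value rests on 2 pools, each a mean of unlike arrays that was high only with rostral RNA in Cy5. Btg1 had -0.49 in MF1 (-0.97 to -0.0085) and -0.44 in C57 (-0.92 to 0.042). Junb had 0.89 in MF1 (0.24 to 1.54) and 0.28 in C57 (-0.36 to 0.93). The Junb value in MF1 is a mean of pools at 1.69, 0.44 and 0.55. These intervals use 1 spread shared by both strains, though the strains were unlike. The SD over pools was 0.69 in MF1 and 0.29 in C57 for Junb, and 0.41 and 0.23 for Btg1. The MF1 intervals of both are thus narrower than MF1 pools alone would give. At an unadjusted p under 0.05, 3 of the 7 tested members stood out in MF1 (4.36% of features), 2 of them higher (2.37%) and 1 lower (1.98%). In C57 1 of 7 did (9.71%), with 1 higher (4.23%) and 0 lower (5.48%). For MF1 minus C57 0 of 7 did, against 6.1% of features, with 3.61% higher and 2.49% lower. With each strain fitted alone, the features at an unadjusted p under 0.05 were 562 in MF1 and 1007 in C57. With the shared spread they were 628 and 1400. After adjustment 0 members passed in either strain or in the difference, as did 0% of features. The adjusted p of the members ran from 0.991 to 0.9995 in MF1, from 0.350 to 0.831 in C57 and from 0.908 to 0.998 for the difference (limma). The differences were -0.21 for Gadd45b (95% interval -0.90 to 0.48), -0.051 for Btg1 (-0.73 to 0.63) and 0.61 for Junb (-0.31 to 1.53). A difference of the size of the ratios themselves is thus within each interval in at least 1 direction. For Gadd45b that is the lower side alone and for Junb the higher side alone.

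Close relatives of the members were measured on the same arrays. Of 22 listed relatives 17 were tested, 9 above and 8 below 0, with a median of 0.039. At an unadjusted p under 0.05 there were 0 of 17, against 8.98% of all features. Gadd45g, a relative of Gadd45b, was at 0.039 (limma, 95% interval -0.34 to 0.41). Btg2 and Btg3, relatives of Btg1, were at -0.038 (-0.29 to 0.22) and 0.22 (-0.13 to 0.57). Tob1, of the same family, was at -0.24 (-0.68 to 0.19). In the Fos family, Fosl1 was at -0.095 and Fosl2 at -0.0085, each over 6 pools. Fosb had a fitted ratio of 0.38 with 1 of 5 pools above 0, C57 pool 1 at 2.43, and the others from -0.82 to -0.052. Egr2 and Egr4 were at -0.28 and -0.25, with 2 of 6 and 1 of 5 pools above 0. Among the phosphatases Dusp4 was at 0.29 (-0.026 to 0.61) and Dusp6 at 0.26 (-0.091 to 0.62), with 5 of 6 and 5 of 5 pools above 0, where Dusp1 had 1 of 5. The tests of all 17 gave adjusted p-values of 0.580 or more (limma).

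The wider lists of early response and stress genes were centred near 0. Over 7 lists, 112 of 146 genes were tested, 52 above and 60 below 0. Of these 0 passed adjustment, and 2 lay higher and 6 lower at an unadjusted p under 0.05, together 7.14% against 8.98% of all features. Medians ran from -0.043 for the integrated stress and unfolded protein response (20 genes) to 0.086 for oxidative stress (15 genes). Other immediate early transcription factors had a median of 0.0059 over 16 genes, and heat shock genes of -0.011 over 16 genes with a range of -0.21 to 0.18. The other medians were 0.035 for effectors (19 genes), -0.036 for the p53 and DNA damage response (14) and -0.024 for upstream kinases (16).

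The single genes named from these lists were chosen by p on these same pools, a choice that favours 1 sign in every pool. Some of them had it, where 3.05% of all features lay below 0 in every pool measured. Ppp1r15a, which restores translation after stress by directing a phosphatase to eIF2 alpha, was at -0.28 ± 0.12 (fitted ratio, SD over pools) and below 0 in 6 of 6 pools, and Mt1, a metal-binding metallothionein, at -0.62 ± 0.15 and also below 0 in 6 of 6. Cdkn1a, the cell cycle inhibitor p21, was at -0.41 ± 0.32, below 0 in 5 of 5 pools. Pools lay on both sides of 0 for Rgs2, a regulator of G protein signalling, at -0.37 ± 0.44, Map3k1, a kinase upstream of JNK, at -0.34 ± 0.27, and Mapk10, the neuronal JNK, at -0.53 ± 0.77. The same held on the rostral side for Eif2ak3, the kinase PERK, at 0.46 ± 0.50 and Gclc, of glutathione synthesis, at 0.54 ± 0.50. In the lists with 0 genes at an unadjusted p under 0.05, those of smallest p were Nr4a2, a nuclear receptor, at -0.48 ± 0.57 and Hspd1, a mitochondrial chaperone, at -0.21 ± 0.39. The adjusted p of these 10 genes ran from 0.328 for Mt1 to 0.720 for Hspd1 (limma).

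**Figure D4:**
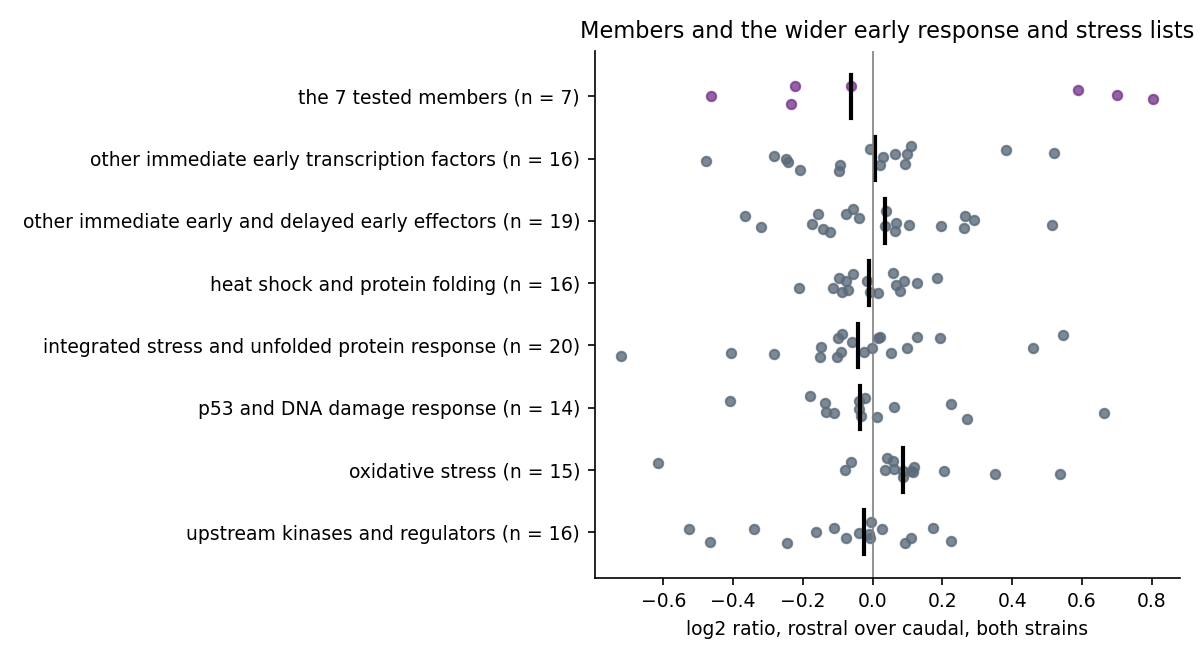
Fitted log2 ratio of rostral over caudal cortex over both strains (horizontal axis) of the 7 tested members and of the tested genes of 7 wider lists, with vertical jitter and a black bar at each median. The list medians lie between -0.043 and 0.086, and Gadd45b, Junb and Egr1 lie to the right of 0.5. So do the list genes Phlda3 (0.66), Phgdh (0.54), Gclc (0.54), Klf6 (0.52) and Sik1 (0.515). Chac1 (-0.72), Mt1 (-0.62) and Mapk10 (-0.53) lie as far to the left.

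Genes whose pool ratios were nearest to those of a member were found by the root mean square difference over the pools the member was measured in. For Gadd45b they were Rlbp1 (0.11, over 5 pools and 9238 genes) and Stk39 (0.19). For Btg1 they were Slit2 (0.14, over 6 pools and 8878 genes) and Ndrg1 (0.18), and for Junb Ccna2 (0.28) and Prss56 (0.33). For Atf3 they were Pvalb (0.13) and Tob1 (0.14), which shared the low value of C57 pool 2, at -1.70 and -1.52. Jun was nearest to Bcan (0.18) and Rmnd5a (0.18), and Dusp1 to Rph3a (0.084) and Rbl2 (0.094). These genes shared arrays with the members, and with so many genes compared over 5 or 6 pools a near match is a description of these pools.

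Markers of other cells that the dissected tissue could hold were read beside these ratios. The list medians were -0.028 for microglia and macrophages (9 genes), -0.045 for blood vessels (12), -0.060 for red blood cells (7), -0.082 for meninges and mesenchyme (13) and -0.12 for choroid plexus (5, with 5 of 5 below 0). The choroid plexus genes Ttr and Aqp1 were at -0.92 ± 1.09 and -0.61 ± 0.70 (SD, n = 6). At an unadjusted p under 0.05, Fcer1g (0.34), Gata1 (0.41) and Ogn (0.43) lay higher rostrally and Icam2 (-0.79), Col1a1 (-0.41), Twist2 (-0.45), Vtn (-0.44), Ttr and Aqp1 lower. Ogn had 2 probes that disagreed: the one measured in 6 pools averaged 0.024, with C57 pool 2 at -1.98, while the other, measured in 2 pools, was at 2.39 in that pool. Among the cells of the cortex itself, the medians were 0.12 for progenitors (11 genes, with Pax6 at 0.40, Hes5 at 0.49 and Lhx2 at -0.50) and 0.20 for neurons (11 genes, with Bcl11b at 0.41). Bcl11b had 2 probes, averaging 0.14 (C57 pool 2 at -0.21) and 0.68 (MF1 pool 3 at -0.12). By strain the neuron median was only 0.075 in MF1 and 0.062 in C57. By pool it ran from -0.16 to 0.18, and the progenitor median from -0.0355 to 0.35. In MF1 pool 1, the pool with the highest Junb ratio, the medians of these lists ran from -0.10 for choroid plexus to 0.25 for red blood cells. In C57 pool 2, with the lowest Atf3 ratio, they ran from -0.62 for choroid plexus to 0.33 for microglia and macrophages. Their part in the members' ratios was not tested.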

How the data were processed

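Log2 ratios between Cy5 and Cy3 were taken from the deposited table of 21998 probes and 12 arrays, with 0 columns of other samples. That the deposited values are log2 was read from the values themselves, which are signed and capped at 16.61. The labels name Trizol for the extraction, the design text names SMART for amplifying cDNA, and the scanner's normalization is not given here. The number of arrays limits the precision. The 701 values at the cap were set to missing. Arrays were centred on their median, turned to rostral over caudal, and averaged within a pool where both arrays had a value. Probes of a gene were averaged. Features needed 2 pools per strain (14418 features, 11490 named). The fit used limma 3.58.1 (R 4.3.3) on pools, with a mean per strain, 1 shared spread and Benjamini-Hochberg adjustment over all features; the script was tested on simulated data. The design text speaks of single litters without saying whether pools of a strain came from different ones. The p-values thus cover only how these pools vary, technical variation included.

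The members and lists were chosen with earlier results of these data known. All members are named. From each list the genes with an unadjusted p under 0.05 over both strains, or else the 1 of smallest p, are named; close relatives of members are named whatever their values. The lists for the direction had medians of -0.38 (caudal genes, Nr2f1 at -1.14) and 0.19 (rostral genes, Etv5 at 0.54). Nr2f1 set the direction, so its sign was fixed in advance. Of the 5 tested caudal genes 4 lay below 0, and of the 9 tested rostral genes 6 lay above 0 and 3 below. Pool numbers were checked as pairs across strains. Deviations of equal numbers correlated at -0.14, 0.058 and -0.0039, and those of unequal numbers at -0.14 to 0.15. Deviations from a mean of 3 pools are tied to each other, so these values cannot show whether equal numbers shared a batch. The main fit did not treat them as pairs. The alternatives covered centring, scaling, capped values, dye orientation, single arrays, probes, missing values, 12 arrays, single strains, left-out pools and a pool number block.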

Additional observations from a re-analysis of the deposited data

Results flagged for a closer look

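Among the 9 members, 3 results stood apart. Junb in MF1 pool 1, at 1.69, was apart from the next pool by a share of 0.656 of the range, above the 95% critical value for 6 values. Atf3 in C57 pool 2, at -1.60, was the lowest of 6 pools by a share of 0.744, also above it. Chance marks about 1 in 20 such groups, and 9 members were examined. For Atf3 all MF1 pools lay above 0 and all C57 pools below 0, with a difference of 0.81, MF1 minus C57, that did not pass (limma, adjusted p = 0.908).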

How the results depend on the processing

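The direction of Gadd45b, Junb, Btg1 and Jun was the same under every alternative that gave a value (15, 18, 18 and 18 settings), with ranges of 0.20 to 1.16, 0.33 to 0.85, -0.65 to -0.35 and -0.41 to -0.073. Some of these settings left the estimate unchanged by construction and could not turn a sign. For Junb, Btg1 and Jun, with 1 probe and values on 12 arrays, they were those on probes, missing values, single arrays, 12 arrays and the block. For Gadd45b they were those on probes and on 1 pool per strain, and the fit without C57 pool 1. For members with too few pools to leave 1 out, fits that accept a lone pool per strain, assumed to vary like the others, were added after seeing the data. In these Egr1 ranged from -0.23 (without C57 pool 1) to 1.84 (without C57 pool 3), and Dusp1 from -0.14 (without C57 pool 1) to 0.016 (without C57 pool 3). Dusp1 also turned to 0.040 with rostral RNA in Cy5 alone. Ier2 moved from -0.043 to 0.20 with single arrays kept, to 0.41 with rostral RNA in Cy5 alone and to 0.044 without MF1 pool 1, and Fos from -0.20 to 0.68 with single arrays kept and to 0.39 with rostral RNA in Cy3 alone. Atf3 ranged from -0.37 to 0.0081 when single pools were left out, turning without C57 pool 2; the cause was not tested. Gadd45b gave 0.20 with rostral RNA in Cy3 alone and 1.16 with rostral RNA in Cy5 alone. Over both strains no member passed adjustment in any setting, with limma's adjusted p for Gadd45b between 0.138 and 0.683. Of all features, for both strains 6 passed among those complete on 12 arrays, 5 among those with 6 pools (a fit added after seeing the data) and 25 with 12 arrays and the pool as a random block. This 12-array fit passed 3 in MF1 and 11 in C57. C57 passed 188 with rostral RNA in Cy3 alone and 118 with rostral RNA in Cy5 alone. In a single orientation region and dye cannot be told apart, and the turned arrays of a C57 pool correlated at -0.30 to -0.13. The other settings for these 3 comparisons, those without 1 pool included, and all settings for MF1 minus C57 passed 0. With the replicate block, which treats equal pool numbers as paired, 0 features passed where 5 did without it. Arrays not centred moved the median of all features to -0.18, and 144 of 2168 features at an unadjusted p under 0.05 were then higher rostrally, against 626 of 1295. The missing arrays of Fos, Egr1 and Ier2 and the number of pools limit what could be seen, and signal over background is unknown.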
